A study of Mus musculus with 52 samples.

Results

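Rnf185 and 8430429K09Rik are a pair of mouse genes on chromosome 11 that are transcribed away from each other from nearly the same point. They were chosen by gene name, and the names had been selected on the values reported here, because both RNAs were higher in mice that lack Tug1. Both genes were listed in each of the 8 tissues, so the pair makes up 2 of the 39144 genes in the deposited tables. The levels and ratios of the pair are therefore given as a description, with no test.

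Rnf185 encodes a RING-type E3 ubiquitin ligase of the endoplasmic reticulum membrane, an enzyme that attaches ubiquitin to membrane proteins so that they are pulled out of the membrane and degraded by the proteasome. This route is called endoplasmic reticulum-associated degradation and is used by most cell types for proteins that misfold or are no longer needed. 8430429K09Rik is annotated as a noncoding transcript. Divergent pairs of this kind, a protein-coding gene and a noncoding RNA that start back to back, are common at mammalian promoters.

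The study measured polyadenylated RNA by sequencing in male mice that are homozygous for the Tug1tm1.1Vlcg allele, written Tug1-/- here, and in wild-type mice. The allele lacks Tug1 downstream of its first exon and carries lacZ there instead, under the control of the Tug1 promoter. Organ and embryonic fibroblast samples carry the strain label C57BL/6J/129S6, at N3 to C57BL/6J and without Neo. Wild-type testes are labelled C57BL/6J without Neo, and the testes of Tug1-/- and rescue mice C57BL/6J with Neo and LacZ. There were 4 wild-type and 4 Tug1-/- testes samples, 3 samples per genotype for MEFs (mouse embryonic fibroblasts, primary cells used at passage 2), liver, heart, eyes and spleen, and 3 wild-type and 2 Tug1-/- prostates. The 3 rescue testes came from Tug1-/- mice with a doxycycline-inducible Tug1 transgene, tg(Tug1), and the CAGs-rtTA3 driver, on a doxycycline diet. Ages are not given in the labels. Brain values stand in the same table but come from libraries outside the series, with a number of samples not given in the sources used here. Strain label and genotype change together in testes, and their parts in a difference cannot be told apart. In rescue testes the transgene, the driver and the doxycycline diet come together and cannot be told apart either. The lacZ insert and the flanking DNA that travels with the targeted allele cannot be told apart from the loss of Tug1 in any tissue.

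The tables hold 1 mean per group and gene, in TPM (transcripts per unit of sequencing depth, a level that is divided by transcript length and by library size), and no value per sample. Hence no spread or standard deviation between samples could be computed and no test was run for any value below. The authors' own test results were set aside. The precision from read counts alone could be given for the 7 tissues other than testes. There the mean normalised count per library was 745 to 4325 for Rnf185 and 35.5 to 242 for 8430429K09Rik, so that counting alone leaves a relative error of 1.52 to 3.66% and 6.43 to 16.8% per library. For the 6 tissues with known sample numbers, the counting error of a log2 ratio of group means was 0.020 to 0.033 for Rnf185 and 0.078 to 0.21 for 8430429K09Rik. All of these errors cover counting only, and the spread between animals comes on top.

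The labels were first checked against Tug1 itself, the deleted gene. Mean Tug1 was 10.1 to 57.5 TPM in wild type over the 8 tissues. It was 0.885 TPM in Tug1-/- testes and between 0.00832 TPM in liver and 0.237 TPM in MEFs elsewhere. Of the 21 tissue markers reported here, 21 were highest in wild type in the tissue they mark. Most stood far above every other tissue, for example Alb at 97035 TPM in liver. The prostate markers were uneven, with Pbsn at 65995 TPM but Spink1 at 5.39 TPM and Sbp at 1.64 TPM, and the fibroblast marker Thy1 (827 TPM) was nearly as high in brain (683 TPM). The brain markers were also high in another tissue, with Gfap at 191 TPM against 134 TPM, Syt1 at 696 TPM against 358 TPM and Snap25 at 1532 TPM against 428 TPM. These are bulk samples, in which fewer cells of a type and less RNA per cell cannot be told apart.

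In the files Rnf185 (ENSMUSG00000020448.16, protein coding, minus strand) spans chr11:3415982-3452363 and 8430429K09Rik (ENSMUSG00000034587.8, a processed transcript, plus strand) spans chr11:3452365-3479831, both in build GRCm38. Their starts lie 2 bases apart. The start of Tug1 (chr11:3639785-3649673, minus strand) lies 197.3 kb away, on the side toward which 8430429K09Rik is transcribed. GENCODE vM21 gives Rnf185 3 transcripts of 6 to 8 exons with 2906 exonic bases in all, of which 684 are coding. It gives 8430429K09Rik 5 transcripts of 2 to 4 exons with 2649 exonic bases, from 4 different starts. The exons of the pair share 0 bases, so no read lying in annotated exons belongs to both. 8430429K09Rik shares 46 exonic bases with the processed pseudogene Gm11945 on the opposite strand. Whether counting used the strand is not given in the sources used here, and reads over those bases are uncertain.

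**Figure D1:**
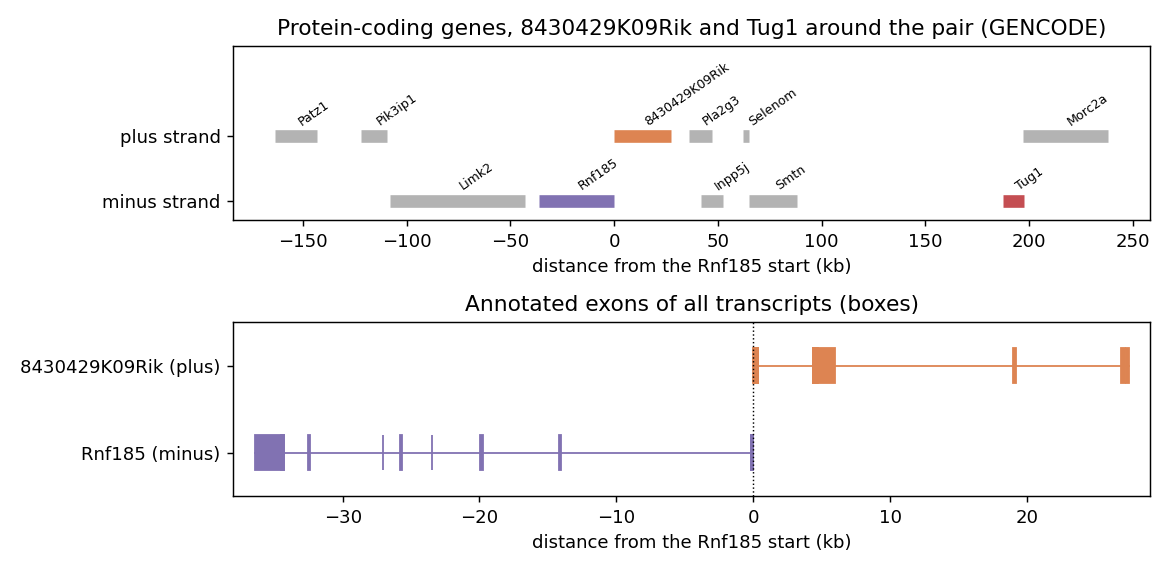
Map of the pair on mouse chromosome 11, with distance from the Rnf185 start in kb on the x axis and strand or gene on the y axis. In the upper panel Tug1 lies 197.3 kb from the start of the pair, and in the lower panel boxes mark the annotated exons, which begin 2 bases apart and run away from each other.

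The sequence next to the GENCODE starts of the pair, on the side of 8430429K09Rik, is shown because both transcripts begin there. RefSeq (GRCm38.p6) gives 3 promoter windows of 300 bases for 8430429K09Rik, and the stretch of the first window that lies beyond the Rnf185 first exon, chr11:3452364-3452486 on the plus strand, reads as follows, with capitals for an ETS-type site (letters CCGGAAGT, read here from the other strand) and a GC box (GGGCGG, likewise from the other strand).
8430429K09Rik: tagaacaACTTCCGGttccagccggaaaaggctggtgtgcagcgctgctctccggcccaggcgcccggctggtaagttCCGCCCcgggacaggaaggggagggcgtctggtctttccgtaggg
The ETS-type match covers chr11:3452371-3452378 and begins 6 bases after the GENCODE start of 8430429K09Rik and 8 bases before that of Rnf185. Among 32817 RefSeq promoter windows of the same length, 3.89% hold this motif on either strand and 35.6% hold the GC box. No TATAAA (held by 13.6% of all windows), CCAAT (37.4%) or TGACGTCA (1.79%) was found in the 3 windows of 8430429K09Rik. The first window holds 30 CpG dinucleotides, against a median of 7 over all windows, and 88.3% of windows hold fewer.

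RefSeq gives Rnf185 a start in another position, 593 bases beyond the GENCODE start and thus inside the span of 8430429K09Rik. The 250 bases before it, chr11:3452957-3453206 read on the minus strand, are shown for contrast, with capitals for CpG.
Rnf185: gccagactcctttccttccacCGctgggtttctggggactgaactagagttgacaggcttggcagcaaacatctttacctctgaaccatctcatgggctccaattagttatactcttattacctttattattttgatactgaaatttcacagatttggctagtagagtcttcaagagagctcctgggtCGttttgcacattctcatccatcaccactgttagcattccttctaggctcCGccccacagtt
This stretch holds 3 CpG and 45.2% G and C, against 10 CpG in 123 bases and 65.9% in the stretch between the GENCODE starts and the window's end. The 123 bases lie mostly in annotated exons of 8430429K09Rik, whereas the 250 bases lie before a start, so the stretches are unlike in kind. The whole RefSeq window of Rnf185 holds 1 CCAAT, 1 GC box, 1 TATAAA that lies after the start, and no ETS-type site. A match describes these letters only, and the tables do not say which start was used in any tissue.

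In wild-type mice Rnf185 was expressed at a moderate to high level in every tissue. The mean was 83.4 TPM in prostate, 62.5 TPM in eyes, 46.7 TPM in brain, 46.3 TPM in testes, 45.3 TPM in MEFs, 32.3 TPM in spleen, 24.5 TPM in liver and 15.7 TPM in heart. The highest and the lowest tissue lay 5.30-fold apart. Brain, testes and MEFs lay within 1.03-fold of each other, and the other steps of the order were 1.32- to 1.56-fold. Rnf185 stood above 80.6% of the listed genes in spleen and above 93.7% in prostate, the ends of its range.

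Heart libraries hold many mitochondrial transcripts, 47.5% of all TPM in wild type and 43.8% in Tug1-/-, against 1.76 to 15.8% in the other tissues, and this lowers every nuclear gene's TPM in heart. With mitochondrially encoded genes left out and the rest rescaled, wild-type Rnf185 was 29.9 TPM in heart and 27.8 TPM in liver, so that liver and not heart was lowest. MEFs (47.7 TPM) and testes (47.1 TPM) also changed places. The order among the lower tissues thus rests on this scaling.

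8430429K09Rik was far lower and more uneven over the tissues. Its wild-type mean was 15.7 TPM in testes, 7.03 TPM in brain, 5.72 TPM in MEFs, 5.18 TPM in eyes, 3.01 TPM in spleen, 2.55 TPM in prostate, 1.07 TPM in heart and 0.523 TPM in liver. The range was 30.0-fold. Testes stood 2.24-fold above the next tissue, brain, while MEFs and eyes lay within 1.10-fold of each other. Without mitochondrially encoded genes the order of the 8 tissues was the same.

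The genes of the pair therefore did not share their tissue pattern. Wild-type 8430429K09Rik was 33.9% of the Rnf185 level in testes, 15.1% in brain, 12.6% in MEFs, 9.32% in spleen, 8.29% in eyes, 6.82% in heart, 3.06% in prostate and 2.14% in liver, all per transcript length. This share varied 15.9-fold. Prostate was the highest tissue for Rnf185 and the sixth for 8430429K09Rik. Over the 8 tissues the Pearson correlation of the log2 wild-type levels was 0.59 and the Spearman correlation of the levels was 0.45, as a description over tissues of which brain comes from libraries outside the series.

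**Figure D2:**
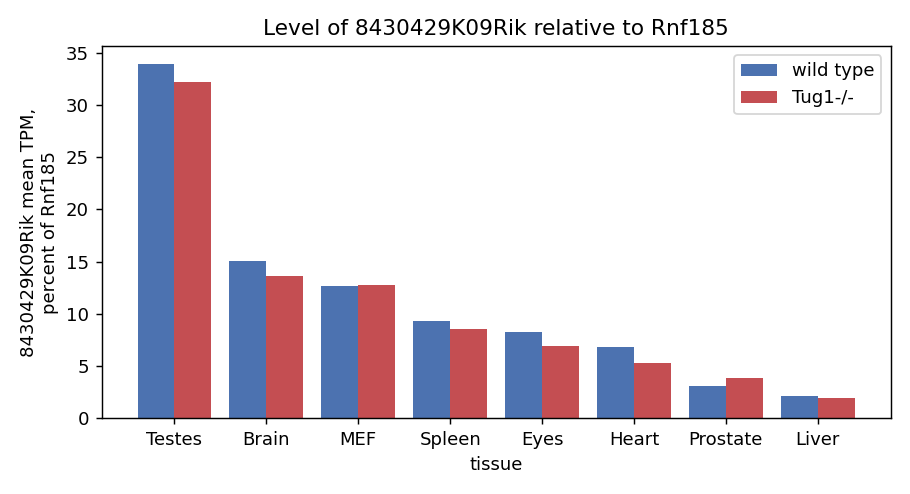
Mean TPM of 8430429K09Rik as a percentage of the mean TPM of Rnf185 (y axis) by tissue (x axis), for wild type and Tug1-/-, with no error bars since only group means are given. The wild-type share ran from 33.9% in testes to 2.14% in liver. On the log2 scale the genotypes lay furthest apart in heart (6.82% in wild type, 5.26% in Tug1-/-) and prostate (3.06% and 3.82%).

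In Tug1-/- mice the Rnf185 mean was higher in each of the 8 tissues, by a similar factor. It was 159.1 TPM in prostate, 115.7 TPM in eyes, 95.2 TPM in brain, 86.1 TPM in MEFs, 82.7 TPM in testes, 56.6 TPM in spleen, 50.6 TPM in liver and 34.2 TPM in heart. The ratio of the means was lowest in spleen at 1.75 and highest in heart at 2.18, with a median of 1.90. The wild-type level itself varied 5.30-fold over the same tissues, or 3.16-fold without mitochondrially encoded genes, while the ratio varied 1.24-fold. In absolute terms the difference ran from 18.5 TPM in heart to 75.7 TPM in prostate.

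8430429K09Rik was also higher in Tug1-/- in each tissue. Its Tug1-/- mean was 26.6 TPM in testes, 13.0 TPM in brain, 10.95 TPM in MEFs, 8.05 TPM in eyes, 6.07 TPM in prostate, 4.82 TPM in spleen, 1.801 TPM in heart and 0.973 TPM in liver. The ratio of the means was 2.38 in prostate, 1.92 in MEFs, 1.86 in liver, 1.84 in brain, 1.70 in testes, 1.68 in heart, 1.6 in spleen and 1.55 in eyes. In liver the gene averaged 0.748 TPM over the genotypes, where the difference of 0.449 TPM rests on the smallest read counts of the set.

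**Figure D3:**
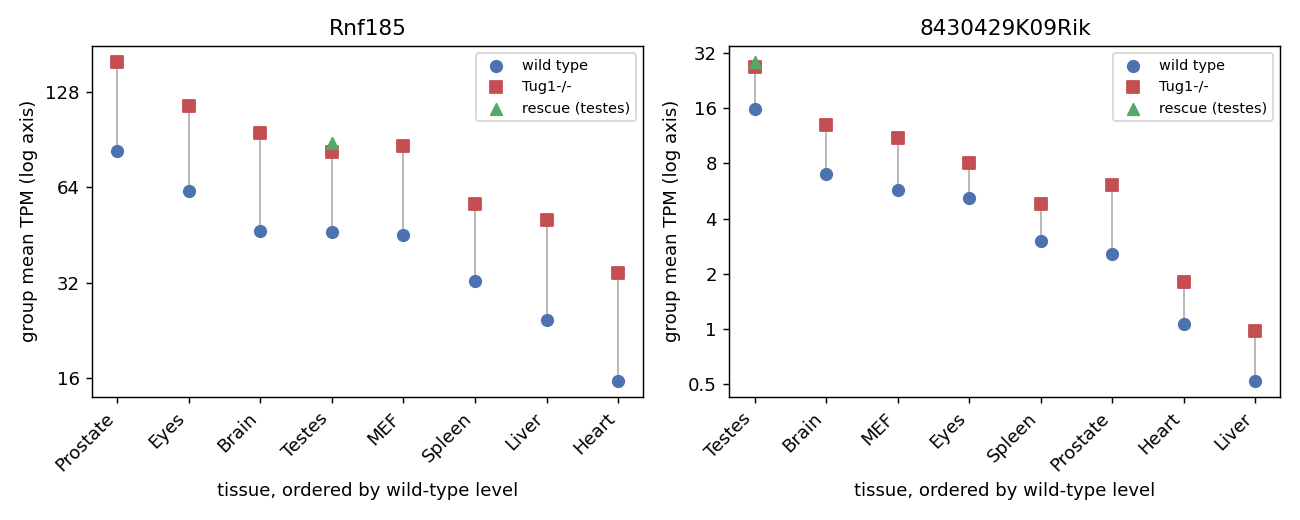
Group mean TPM (y axis, log scale) of Rnf185 and 8430429K09Rik by tissue (x axis, ordered by wild-type level), with circles for wild type, squares for Tug1-/-, triangles for rescue testes and a line between genotypes. The Tug1-/- mean lay above the wild-type mean in 8 of 8 tissues for both genes, by 1.75- to 2.18-fold for Rnf185 and by 1.55- to 2.38-fold for 8430429K09Rik.

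For comparison with all other genes a log2 ratio of the group means was taken after adding 0.1 TPM to each, which understates the change of low genes, and a gene was counted as higher or lower past 1.5-fold (0.585 on the log2 scale). Rnf185 was past this limit upward in 8 of 8 tissues, with log2 ratios of 0.81 to 1.12. 8430429K09Rik was past it in 8 of 8, with log2 ratios of 0.63 to 1.22, although in liver it fell under the minimum of 1 TPM that was set for the count over all genes. With 1 TPM added in place of 0.1 TPM, 8430429K09Rik was past the limit in 4 of 8 tissues and Rnf185 in 8 of 8. The share of all genes with at least 1 TPM that were 1.5-fold higher in Tug1-/- was 4.99% for spleen, 4.67% for prostate, 3.09% for MEFs, 2.97% for liver, 2.84% for eyes, 2.34% for testes, 1.72% for brain and 1.67% for heart. Since the pair was selected on these differences, nothing is read from its count against these shares.

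The place of the pair among all genes differed by tissue. By log2 ratio Rnf185 ranked 38 of 13701 genes in heart but 507 of 16810 in spleen. 8430429K09Rik ranked 134 of 17244 in brain and 696 of 16810 in spleen. Spleen was thus the tissue in which both stood out least, with log2 ratios of 0.81 and 0.66 inside the central 95% of all genes, which reached 0.89 there.

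**Figure D4:**
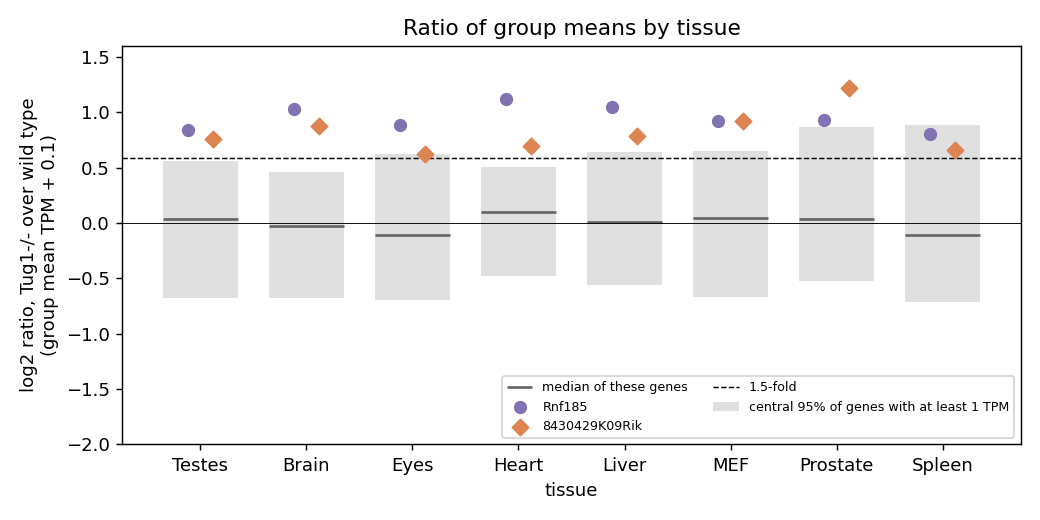
Log2 ratio of group means, Tug1-/- over wild type (y axis), for Rnf185 and 8430429K09Rik by tissue (x axis), beside the central 95% (bars) and median (lines) of all genes with at least 1 TPM. The dashed line marks 1.5-fold, and the points of both genes lie above it in 8 of 8 tissues, with spleen the tissue where they fall inside the bar.

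The evenness of the difference over tissues set the pair apart from most genes, as the choice of the pair implies. Of 15566 genes listed in 8 tissues with a mean of at least 1 TPM, 133 had a higher mean in Tug1-/- in 8 of 8 tissues. Only 2 were at least 1.5-fold higher in 8 of 8, and these were Rnf185 and 8430429K09Rik, the latter in 4 of 8 once 1 TPM was added in place of 0.1 TPM. A further 5 genes were past the limit in 7 tissues and 8 genes in 6. The gene next in line was Selenom, a selenoprotein of the endoplasmic reticulum encoded 62.3 kb from the start of Rnf185, whose smallest log2 ratio was 0.51, in spleen. Of 45 genes whose median log2 ratio was past the limit, Rnf185 had the smallest standard deviation over the 8 tissues (0.11) and 8430429K09Rik the next (0.19), with Selenom close to it (0.20). These deviations are between tissues and not between animals. Levels were not matched among these genes, with a median wild-type level of 45.8 TPM for Rnf185 but 1.05 TPM for Gm21960, also among them. Since low levels carry more counting error and the pair was chosen on these ratios, nothing is read from this order.

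**Figure D5:**
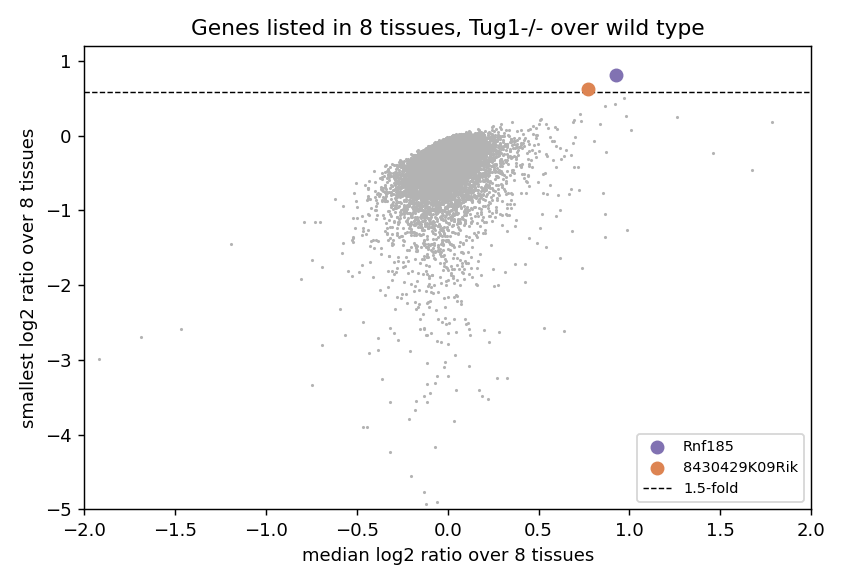
Smallest log2 ratio over 8 tissues (y axis) against the median log2 ratio (x axis), Tug1-/- over wild type, with 1 point per gene for 15566 genes and the pair in colour; axes end at fixed limits, so extreme genes are not drawn. Rnf185 (0.81) and 8430429K09Rik (0.63) are the points above the dashed 1.5-fold line.

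Within the pair the ratios of the group means differed from tissue to tissue, and whether they differed beyond the spread between animals was not tested. The ratio without an added constant was larger for Rnf185 in 6 tissues and larger for 8430429K09Rik in 2, MEFs and prostate. The gap on the log2 scale was 0.01 in MEFs and 0.08 in testes, but 0.37 in heart, where Rnf185 had the higher ratio, and 0.32 in prostate, where 8430429K09Rik had it. In heart the counting error of the 8430429K09Rik log2 ratio alone was 0.14, and in prostate it was 0.11 with 2 Tug1-/- samples. Over the 8 tissues the log2 ratios of the genes had a Pearson correlation of 0.19 and a Spearman correlation of 0.36, given as a description. Their standard deviations over tissues were only 0.11 for Rnf185 and 0.19 for 8430429K09Rik. A low correlation over such narrow ranges does not show that the true changes differed. The order of tissues by level was nearly the same in Tug1-/- as in wild type, with MEFs and testes exchanged for Rnf185 and prostate and spleen exchanged for 8430429K09Rik.

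Scaling moved the values little. The median log2 ratio of all genes with at least 1 TPM was -0.11 in spleen, -0.11 in eyes, 0.10 in heart and between -0.02 and 0.05 in the other tissues. Relative to this median the Rnf185 log2 ratio was 0.80 to 1.05 and that of 8430429K09Rik was 0.60 to 1.18, so that both were past 1.5-fold in 8 of 8 tissues on that scale also. The end tissues changed, however, with testes lowest and brain highest for Rnf185 in place of spleen and heart. With mitochondrially encoded genes left out, brain (1.04) was also above heart (1.02).

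In rescue testes the means of both genes stood near those of Tug1-/- testes. Rnf185 was 46.3 TPM in wild type, 82.7 TPM in Tug1-/- and 88.4 TPM in rescue, and 8430429K09Rik was 15.7, 26.6 and 28.5 TPM. Rescue over Tug1-/- was 1.07-fold for each gene, with log2 ratios of 0.10 and 0.10 against a median of 0.01 over all genes, and 0 of 2 passed 1.5-fold upward where 1.04% of all genes did. Rescue over wild type was 1.91-fold for Rnf185 and 1.81-fold for 8430429K09Rik, past the limit for 2 of 2, with 2.27% of all genes past it. Tug1 RNA itself was 1.605 TPM in rescue testes, 4.003% of the wild-type mean of 40.1 TPM. These comparisons share the wild-type and the Tug1-/- groups.

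The genes on either side of the pair differed in their behaviour. Limk2, a LIM-domain kinase that acts on cofilin, starts 6793 bases beyond the 3′ end of Rnf185, and its log2 ratio lay between -0.29 in eyes and 0.17 in heart, past 1.5-fold in 0 of 8 tissues. Pla2g3, a secreted phospholipase A2, starts 8453 bases beyond the 3′ end of 8430429K09Rik, toward Tug1. It was listed in 7 tissues, and with 0.1 TPM added its mean was at least 1.5-fold higher in Tug1-/- in 5 of them, for example 2.31 and 4.10 TPM in testes and 4.69 and 7.27 TPM in brain. It was under 1 TPM in heart, MEFs, prostate and spleen, and in spleen (0.354 and 0.555 TPM) the plain ratio was 1.57 while the log2 ratio with 0.1 TPM added was 0.53, under the limit. Inside the span of 8430429K09Rik the pseudogene Gm11945 was at most 0.532 TPM in the 4 tissues that list it. With 0.1 TPM added it was past 1.5-fold upward in 3 of these, heart, MEFs and prostate, each under 1 TPM, and its log2 ratio in testes was -0.34. The small nucleolar RNA Gm24439 was listed in 3 tissues, with 1.71 TPM in testes of wild type and 4.30 TPM in those of Tug1-/-. In eyes it was 1.798 and 1.749 TPM and in spleen 0.491 and 0.713 TPM, under the limit in both.

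By Pearson correlation of log2 levels over 8 tissues the genes most like Rnf185 in wild type were Golgb1 (0.98), Txndc12 (0.98), Tmem203 (0.96), Ergic3 (0.96) and Prkra (0.96). Golgb1, a large Golgi membrane protein, had log2 ratios of -0.18 to 0.21. The genes most like 8430429K09Rik were Rtca (0.99), an RNA cyclase, Fam216a (0.99), Hdgfl2 (0.99), Mapkbp1 (0.99) and Tada3 (0.99). Rtca had log2 ratios of -0.20 to 0.11. With Spearman correlation 0 of the 5 genes remained for Rnf185 and 1 of 5 for 8430429K09Rik. Without brain 2 and 3 of 5 remained, and with 1 TPM added 5 and 2 of 5, so these names rest on the measure. The correlation of the pair with each other was 0.59. Among the 15566 genes compared, 3095 were more like Rnf185 than this, and 5461 were more like 8430429K09Rik.

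By the log2 ratios over the tissues, the genes nearest to Rnf185 were Selenom (root mean square difference 0.16), 8430429K09Rik (0.24), Gm21960 (0.30), Pcdhga12 (0.38) and Gm14327 (0.39). For 8430429K09Rik they were Rnf185 (0.24), Selenom (0.24), Gm21960 (0.32), Pcdhga7 (0.33) and Pcdhga12 (0.35). Both members were chosen for being higher in Tug1-/-, so their nearness to each other follows in part from that choice. Selenom lies on chromosome 11 with the pair, Gm21960 on chromosome 3, Gm14327 on chromosome 2, and the protocadherins Pcdhga7 and Pcdhga12 on chromosome 18. Without brain, 3 of the 5 names remained for each gene, and the gene nearest to 8430429K09Rik was Serpina3f (0.21), before Selenom (0.25) and Rnf185 (0.25). The median wild-type level of Serpina3f was only 0.148 TPM, so the added 0.1 TPM weighs on its ratios, and its log2 ratio in brain was -0.42. Gm14327 (0.794 TPM), Gm21960 (1.05 TPM) and Pcdhga7 (1.11 TPM) were also low, against 36.3 TPM for Selenom.

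A list of 35 genes of endoplasmic reticulum-associated degradation was read, of which 34 or 35 had at least 1 TPM in each tissue. Over the 8 tissues, 4 of 278 gene and tissue values were at least 1.5-fold higher and 1 was at least 1.5-fold lower in Tug1-/- (1.44% and 0.36%), beside 3.02% and 3.02% of 130180 such values over all genes, so nothing is read from these low counts. By tissue the count of higher genes was 2 in prostate, 1 in liver, 1 in spleen and 0 in the other tissues, where 4.67%, 2.97% and 4.99% of all genes were higher in those 3 and 1.67 to 3.09% in the rest. The lower gene was in brain, and the share of all genes at least 1.5-fold lower was 3% there, 4.37% for spleen, 3.82% for eyes, 3.34% for MEFs, 2.9% for testes, 2.25% for liver, 2.05% for prostate and 1.82% for heart. The list's median log2 ratio was -0.03 to 0.17 over the tissues, and the all-gene medians were -0.11 to 0.10.

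Among the ligases and their partners, Rnf5, the closest relative of Rnf185, was 21.4 to 105.6 TPM in wild type with log2 ratios of -0.23 to 0.07. Tmem259 (membralin), which works with Rnf185 at the membrane, had log2 ratios of -0.17 to 0.16. The ubiquitin-like membrane proteins Tmub1 and Tmub2 of the same complex had log2 ratios of -0.08 to 0.17 and -0.14 to 0.19. The genes past the limit in any tissue were Syvn1, Herpud1 and Derl3. Syvn1, the HRD1 ligase, was 97.3 and 158.4 TPM in wild-type and Tug1-/- prostate. Herpud1, a scaffold of the HRD1 complex, was 465.7 and 954.8 TPM in prostate and 436.5 and 718.2 TPM in liver. Derl3, a channel component of secretory cells, was 23.8 and 36.1 TPM in spleen, and 2.44 and 1.33 TPM in brain. Log2 ratios were -0.15 to 0.31 for the 7 conjugating enzymes and -0.16 to 0.30 for the 7 factors around Vcp that extract proteins from the membrane.

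The RNAs of 4 proteins known to be ubiquitinated by Rnf185 were read as well, although the enzyme acts on the proteins, which were not measured. Cftr, a chloride channel, was 18.3 and 17.4 TPM in wild-type and Tug1-/- testes and under 1 TPM elsewhere. Cyp51, a sterol demethylase of cholesterol synthesis, ran from a log2 ratio of -0.31 in MEFs to 0.56 in liver, where the means were 76.9 and 113.2 TPM. Bnip1, a membrane fusion protein, had log2 ratios of -0.11 to 0.37, and Mb21d1, which encodes the DNA sensor cGAS, of -0.18 to 0.39.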

How the data were processed

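The authors aligned paired-end polyA reads to GRCm38 with STAR, counted uniquely mapped reads with featureCounts on GENCODE vM16, dropped a gene where each replicate had under 3 reads, and deposited group mean TPM values (wild type, Tug1-/- and, for testes, rescue). In the second table, which stacks 7 tissues, the deposited signal columns hold mean TPM per genotype and the authors' mean normalised count. Columns with the authors' fold changes, test statistics, p-values and adjusted p-values from DESeq2 were not used. CASAVA 1.8.2 is named in the submitters' processing notes. Labels name the tables the other way round, and content decided.

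Ratios of means were computed in Python 3.11.15 with numpy 2.4.6, pandas 2.3.3 and scipy 1.17.1, as log2 with a pseudocount of 0.1 TPM, for genes averaging at least 1 TPM where all genes are counted. The counting of genes past the fold limit was checked on simulated group means. With 0 columns of single samples, no new test could be computed. The counting error treats normalised counts as reads shared between the genotypes by mean TPM and sample number. The members and lists were chosen with earlier results of these data known. Genes named are the pair, Tug1, nearest and overlapping neighbours, the 5 most alike by level and by ratio, listed degradation genes past 1.5-fold with Rnf5, Tmem259, Tmub1 and Tmub2, and 4 proteins ubiquitinated by Rnf185. The 6 F1 testes samples were not analysed here, and 1 eye marker is not reported here.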

Additional observations from a re-analysis of the deposited data

How the results depend on the processing

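The Rnf185 log2 ratio kept its direction and stayed past 1.5-fold in each of the 8 tissues under each of 4 alternatives, namely no pseudocount, a pseudocount of 1 TPM, a median log2 ratio set to 0, and mitochondrially encoded genes left out, with a full range of 0.79 to 1.12. For 8430429K09Rik 28 of 32 such values did. With 1 TPM added its log2 ratio was 0.55 in eyes, 0.44 in heart, 0.37 in liver and 0.54 in spleen, under the limit, so that 4 tissues passed, since a larger constant pulls low levels together. At a limit of 2-fold 3 tissues passed for Rnf185 and 1 for 8430429K09Rik. Leaving out mitochondrially encoded genes kept 4 of the 8 tissues at their place in the Rnf185 order. By mean normalised count in place of TPM, 3 of 7 tissues kept their place for Rnf185 and 4 of 7 for 8430429K09Rik.

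The counts of genes at least 1.5-fold higher followed the minimum level. With no minimum they were 1677 for spleen, 1838 for prostate, 1301 for MEFs, 1198 for liver, 1402 for eyes, 1643 for testes, 896 for brain and 880 for heart, against 839, 706, 446, 352, 545, 511, 297 and 229 as reported. With a minimum of 5 TPM they were 540, 242, 131, 158, 306, 159, 52 and 96 in the same order. With 1 TPM added they were 467 for prostate, 253 for MEFs, 228 for liver, 277 for testes, 153 for brain and 130 for heart. With the median set to 0 the count in heart was 145. For the degradation list a limit of 25% above wild type gave 8 higher values in place of 4, or 2.88% beside 7.91% of all genes. Setting the median to 0 leaves the differences between ratio profiles as they are, by construction. No paired analysis was possible because the tables hold group means only, and for the same reason no sample was left out in turn. Depth limits 8430429K09Rik most, above all in liver.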
